A study of Mus musculus with 2 samples.

Results

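The lymphocytes that remained after leukocytes had been sorted out of mouse lung were examined in 2 single-cell RNA sequencing libraries. Cells were selected on 4 conditions, namely at least 300 genes, under 20% mitochondrial unique molecular identifiers (UMIs, each of which marks 1 captured RNA molecule), no UMI of the endothelial cadherin Cdh5, and at least 4 UMIs summed over Cd3e, Cd3g, Cd79a, Cd79b, Ms4a1 and Nkg7. The selection gave 54 lymphocytes among 21983 barcodes that met the limits on genes and mitochondrial UMIs, with 13 among 10478 in the control library and 41 among 11505 in the B16-F10 library. Cells in which Cd79a, Cd79b and Ms4a1 held the larger sum were called B cells (9 and 27), and the remainder T or NK cells (4 and 14).

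The study asked how the lung vasculature changes when melanoma cells arrive. Wild-type male C57BL/6JRj mice, 8 to 10 weeks old, received through the tail vein either phosphate-buffered saline (control) or 400000 cells of the mouse skin melanoma line B16-F10, each in 100 microlitres, and lungs were taken 6 h later. Cells positive for Pecam1 and negative for Ptprc, a pan-leukocyte surface protein also called CD45, were sorted, together with dyed melanoma cells in the injected group. Cells of similarly treated mice were pooled (2 mice according to the labels, 3 according to the methods), so each group is 1 library, no spread between mice can be given and no test was made.

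B cells carry an antibody as their antigen receptor, made of heavy chains and of either kappa or lambda light chains, and signal through Cd79a and Cd79b. T cells signal through the Cd3 chains that accompany the T cell receptor, whereas NK cells lack that receptor and kill through granules holding perforin and granzymes, with which Nkg7 is associated. Lymphocytes pass through lung capillaries with the blood and also reside in the tissue, and they respond within hours to stimulation by expressing immediate early genes and the retention receptor Cd69.

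The libraries hold 85794655 (control) and 104978816 UMIs (B16-F10). B cells had a median of 7256 UMIs per cell in control (1207 to 11357) and 7221 in the B16-F10 library (2310 to 12990), and T or NK cells had 8845.5 (7679 to 9676) and 9420 (5533 to 24408). Levels are in CPM, the UMIs of a gene per 1000000 UMIs of the cells summed per library. Ratios set the B16-F10 level over that of control, as log2 values with exact 95% intervals, so a negative value means a lower level in the B16-F10 library. All intervals cover counting error only and hold nothing of the variation between cells or mice. Of the 54 cells, none shared its barcode with another library's lymphocyte, and Scrublet, a doublet caller, marked none of them. Whether Scrublet can detect pairs of lymphocytes was not tested.

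The marker sum that chose the cells ranged from 5 to 65 UMIs in control (median 37) and from 4 to 112 in the B16-F10 library (median 29). Each library had 1 cell at 4 or 5 UMIs, just inside the threshold. Just outside it, at 2 or 3 UMIs, lay 1 control barcode without a Ptprc UMI and 10 B16-F10 barcodes, of which 5 had one. No cell had equal sums for the B and the T or NK markers.

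The selected cells matched their label on genes the selection did not use. Ptprc was found in 8 of 9 and 26 of 27 B cells, at 1411 and 1123 CPM, and in every T or NK cell, at 2796 and 2237 CPM. Endothelial barcodes (at least 4 UMIs of Cdh5) carried a Ptprc UMI in 0.327% and 1.36% of cases. The RNA for the protein that the sort excluded was thus present in 52 of the 54 cells. Pecam1, the protein that the sort required, had RNA in 6 of 9 and 22 of 27 B cells (537 and 445 CPM) and in 2 of 4 and 7 of 14 T or NK cells (285 and 106 CPM), against 99.2% and 99.1% of endothelial barcodes (1300 and 1231 CPM). Near-empty barcodes with 1 to 100 UMIs, which sample free RNA, held 968 and 742 CPM of Pecam1, and the part of free RNA in the Pecam1 counts of lymphocytes was not tested.

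RNA markers of other cell types were counted in each cell. The 13 endothelial markers other than Cdh5 gave 0 to 12 UMIs per lymphocyte, with medians of 3 in B cells and 4 in T or NK cells of both libraries, against medians of 186 and 172 in endothelial barcodes. If all of it were free RNA, that would account for 2.11% to 3.06% of the UMIs in a class. The median of the 14 myeloid markers was 0 UMIs, with a highest value of 9, and Csf1r, Cd68, Cd14 and Csf3r were at 0 in all 54 cells. Melanoma markers gave at least 1 UMI in 6 of 27 B cells and 5 of 14 T or NK cells of the B16-F10 library, at most 6 UMIs in a cell, and in no control cell. The 10 red cell and platelet genes gave 1 to 27 UMIs per lymphocyte, at 752 and 1568 CPM in B cells (log2 ratio, B16-F10 over control, 1.06, 0.62 to 1.53) and 571 and 801 CPM in T or NK cells (0.49, -0.20 to 1.25). In near-empty barcodes they were lower in the B16-F10 library, at 57329 and 44334 CPM. The part of free RNA in the counts of lymphocytes was not tested. Single genes changed sign in B cells under other settings. With free RNA subtracted, Hba-a1 was at -1.52 and Hbb-bt at -3.14, and with cells thinned to 1000 UMIs Hbb-bs was at -0.21.

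Lymphocytes made up a larger share of the B16-F10 library. They were 0.124% of barcodes in control (95% Clopper-Pearson interval 0.0661 to 0.212) and 0.356% in the B16-F10 library (0.256 to 0.483), a 2.87-fold higher share (1.51 to 5.84) and a difference of 0.232 percentage points (Newcombe interval 0.104 to 0.369). B cells were 0.0859% and 0.235% (2.73-fold, 1.25 to 6.60). T or NK cells were 0.0382% and 0.122% (3.19-fold, 1.00 to 13.3). All 3 differences lay beyond counting error, that of the T or NK cells barely so.

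Since melanoma cells had been added to 1 library only, the counts were also set against endothelial barcodes, of which there were 7958 in control (75.9% of barcodes) and 7785 in the B16-F10 library (67.7%). The folds were then 3.22 for all lymphocytes (1.69 to 6.56), 3.07 for B cells and 3.58 for T or NK cells. Myeloid-marked barcodes (no Cdh5 and at least 10 myeloid UMIs) moved the same way, from 41 (0.391%) to 91 (0.791%), a 2.02-fold higher share (1.38 to 3.00). Lymphocytes were 24.1% and 31.1% of both kinds together, a difference of 6.99 points (-7.80 to 19.6) that did not exceed counting error. A gate against Ptprc decides how many leukocytes enter a library, so a difference between the lungs and a difference between the sorts cannot be told apart here.

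The balance of the classes was similar in the 2 libraries, with B cells at 69.2% of lymphocytes in control (38.6 to 90.9) and 65.9% in the B16-F10 library (49.4 to 79.9). The difference of -3.38 percentage points has an interval from -27.1 to 26.3, so shifts of that size cannot be detected with 54 cells.

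**Figure D1:**
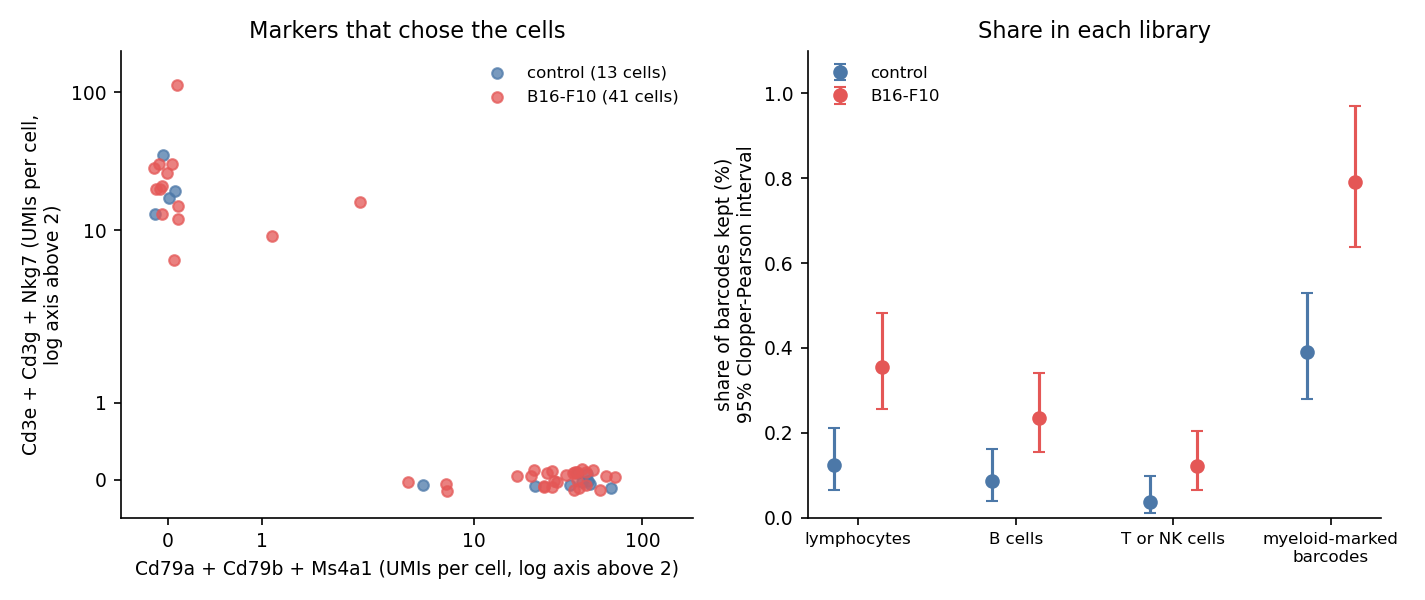
Left, UMIs of the B markers (Cd79a, Cd79b and Ms4a1) against UMIs of the T or NK markers (Cd3e, Cd3g and Nkg7) in each of the 54 lymphocytes, slightly jittered, on axes that are logarithmic above 2. Right, shares of barcodes in percent with 95% Clopper-Pearson intervals for all lymphocytes, B cells, T or NK cells and myeloid-marked barcodes, control and B16-F10. All but 1 of the cells lie along 1 of the 2 axes, with under 2 UMIs of the other kind, and each B16-F10 share is above the control share.

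The condition on Cdh5 left out further barcodes with lymphocyte markers. With at least 1 Cdh5 UMI there were 4 in control, all of them T or NK, and 31 in the B16-F10 library, 13 B and 18 T or NK. Ptprc was present in all 4 and in 30 of 31. In control, each had 1 Cdh5 UMI and 1 to 4 UMIs of the other endothelial markers. In the B16-F10 library, 18 had 1 Cdh5 UMI, with a median of 3 other endothelial UMIs (0 to 35). Another 10 had at least 4 Cdh5 UMIs and 54 to 452 others. Their median of 198 was near the median of 172 in endothelial barcodes, but the lowest lay well under it. With up to 1 Cdh5 UMI allowed (a choice made with the data in view), lymphocytes numbered 17 and 59, T or NK cells 8 and 22, and B cells 9 and 37.

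The B cells had the profile of unswitched B cells. Pax5 and Ebf1, transcription factors of B cell identity, were each found in 35 of 36 cells, the heavy chain constant gene Ighm (IgM) in all 36 and Ighd (IgD) in 33. Jchain, a gene of antibody-secreting cells, and the switched heavy chain genes were seen in 1 cell each. The cell without Pax5 and Ebf1 was the smallest of all, with 1207 UMIs and a marker sum of 5. No B cell had a UMI of Cd3e, Cd3g, Cd3d or Nkg7.

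The 15 genes with the highest level over all other barcodes, a description since the cells were chosen by B cell RNA, were Il5ra, Ighd, Iglc2, Bank1, Cd79a, 2010309G21Rik, Gm43388, Fcmr, Fcrl1, Siglecg, Pax5, Iglc3, Ly6d, Gm31243 and H2-Oa. They stood 10.14 to 11.26 above the other barcodes on the log2 scale. Only Cd79a among them belongs to the selection markers. Il5ra encodes the interleukin-5 receptor chain, Bank1 a scaffold of B cell receptor signalling, Fcmr a receptor for IgM, and Siglecg an inhibitory lectin receptor. 2010309G21Rik is annotated as an antisense gene (GRCm38 chromosome 16, 19051367 to 19106749, plus strand) across the region that holds Iglc1 and Iglc3.

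Of the 22 genes of the B cell list, all could be measured (at least 20 UMIs over both libraries), and their sum was 30582 CPM in control and 27887 in the B16-F10 library (log2 ratio -0.13, -0.21 to -0.06). Of them, 2 were at least 2-fold higher and 2 lower, against 8.73% and 6.62% of the 2267 genes measured in B cells. Their median log2 ratio was -0.14. Igkc, the kappa constant gene, ranged from 0 to 138 UMIs per control cell (median 46) and from 0 to 136 per B16-F10 cell (median 50). Ighd was at 100 and 178 UMIs, or 1534 and 943 CPM (-0.70, -1.06 to -0.33), and the Src-family kinase Blk at 49 and 67 UMIs (-1.08, -1.64 to -0.52). The complement receptor Cr2 (19 and 27 UMIs, -1.03, -1.93 to -0.10) and the low-affinity IgE receptor Fcer2a (40 and 60 UMIs, -0.95, -1.55 to -0.33) were also lower in the B16-F10 library. Ighd lay at -1.23 with up to 1 Cdh5 UMI allowed, and 21 of the 40 control UMIs of Fcer2a came from 1 cell.

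Each B cell normally keeps 1 light chain, and the 3 lambda constant genes differ in how well their reads can be told apart. The last 90 coding bases of each gene, stop codon included, are shown for that reason (transcripts of GENCODE M21, GRCm38, chromosome 16, minus strand). Capitals mark the bases that differ from Iglc2. The stretches lie at chr16:19198536-19198625 (Iglc2), chr16:19065365-19065454 (Iglc3) and chr16:19061752-19061841 (Iglc1).
Iglc2: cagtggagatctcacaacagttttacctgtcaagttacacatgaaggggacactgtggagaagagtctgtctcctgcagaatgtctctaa
Iglc3: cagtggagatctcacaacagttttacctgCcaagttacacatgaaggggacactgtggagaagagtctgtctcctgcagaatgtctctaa
Iglc1: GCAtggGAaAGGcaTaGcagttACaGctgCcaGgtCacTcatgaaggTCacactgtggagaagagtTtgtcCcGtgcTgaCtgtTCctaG

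Iglc3 differs from Iglc2 at 1 of these bases and Iglc1 at 27. Over the coding sequence Iglc2 and Iglc3 are identical at 306 of 317 positions (96.5%), so how their reads were divided between the genes is uncertain and only their sum is used below.

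More B cells were led by kappa than by lambda. Igkc exceeded the sum of Iglc1, Iglc2 and Iglc3 in 29 of 36 cells (80.6%, 64.0 to 91.8), 7 of 9 in control and 22 of 27 in the B16-F10 library. In 28 cells the larger chain was at least 2-fold above the other, and of these 25 were kappa and 3 lambda. The remaining 8 cells held both chains within 2-fold, 4 called each way. At least 1 UMI of the other chain was found in 27 of the 29 kappa cells (at most 65) and in 5 of the 7 lambda cells (at most 40). The source of these UMIs was not tested.

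The 3 cells with a clear lambda chain used different genes. Control B cell 8 had 0 UMIs of Igkc against 87 of the lambda genes, of which 6 were Iglc1. B16-F10 B cell 16 had 9 against 54, with 47 from Iglc1, and B16-F10 B cell 25 had 0 against 45, with 40 from Iglc1. Those 2 cells supplied 87 of the 140 Iglc1 UMIs of the B16-F10 library, against 19 UMIs in control (1.35, 0.65 to 2.12). Iglc1 lay at 0.55 when each cell was thinned to 1000 UMIs. Near-empty barcodes held 42.3 and 69.9 CPM of Igkc, far below the level in B cells.

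**Figure D2:**
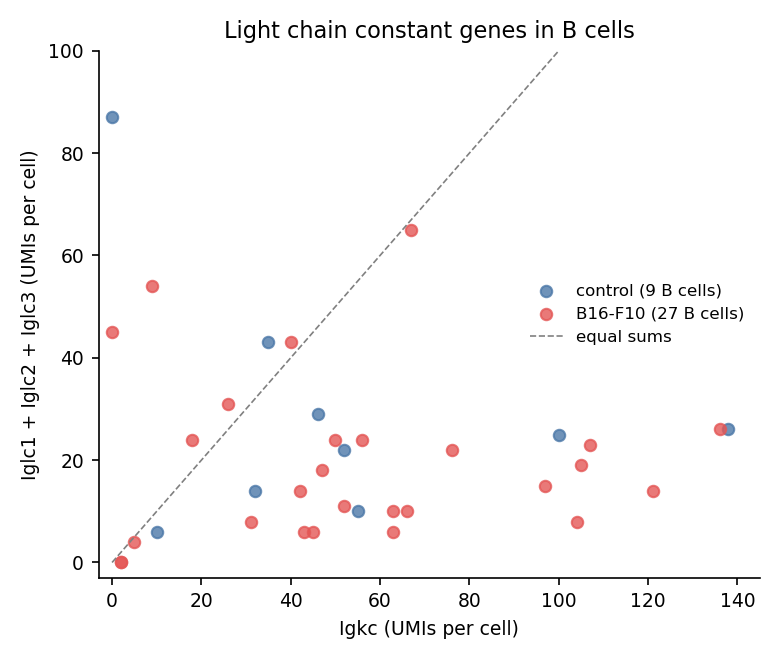
UMIs of Igkc (kappa) against UMIs of Iglc1, Iglc2 and Iglc3 summed (lambda) in each of the 36 B cells, control and B16-F10, with the line of equality. Most cells lie on the kappa side of the line, 3 cells with 0 or 9 Igkc UMIs lie on the lambda side with at least 45 lambda UMIs, and 8 cells lie near the line.

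Between the libraries, 2267 genes could be measured in B cells, of which 198 were at least 2-fold higher in the B16-F10 library (8.73%) and 150 at least 2-fold lower (6.62%), with a median log2 ratio of 0.00. The lists below are set beside that background, first that of 28 activation and immediate early genes. Of its 18 measured genes, 8 were at least 2-fold higher and 1 lower, and their median was 0.29. Summed, the list had 382 UMIs in control and 1622 in the B16-F10 library, or 5859 and 8593 CPM (0.55, 0.39 to 0.72).

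The higher level was spread over many cells, and the libraries overlap. Control cells ranged from 2486 to 8125 CPM of the list (median 4858) and B16-F10 cells from 2117 to 15960 (median 7478). Of the 27 B16-F10 cells, 25 were above the control median and 12 above the highest control cell, while 2 were below the lowest. The list was also higher in endothelial barcodes (3250 and 5791 CPM) and in near-empty barcodes (2383 and 4393 CPM) of the same library. With free RNA subtracted at the highest share the endothelial UMIs allow (2.11% in control, 3.06% in the B16-F10 library), the ratio in B cells was 0.56. The part of free RNA in the result was not tested. Red cell and platelet genes were also higher in B cells of that library (287 to 6628 CPM per control cell, median 636, and 421 to 4426 per B16-F10 cell, median 1571), and their part in the result was not tested. The ratio of the activation list in B cells was 0.20 with up to 1 Cdh5 UMI allowed. It was 0.53 when barcodes of 25000 or more UMIs, of which there were 2, were also left out.

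Fos (ENSMUSG00000021250, GRCm38 chromosome 12, 85473890 to 85477273, plus strand), a subunit of the transcription factor AP-1, was found in 2 of 9 control and 20 of 27 B16-F10 B cells. Its UMIs per cell were 0 to 12 (median 0) in control and 0 to 30 (median 3) in the B16-F10 library, 14 and 125 in all, which is 215 and 662 CPM (1.62, 0.82 to 2.54). Of the 14 control UMIs, 12 were from 1 cell. When each cell was thinned to 1000 UMIs, 2 and 12 cells had a Fos UMI, and in endothelial barcodes 18.8% and 49.6% had one.

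Junb, the AP-1 partner gene (ENSMUSG00000052837, chromosome 8, 84974484 to 84978718, minus strand), was likewise higher. Control cells had 0 to 5 UMIs (median 2) and B16-F10 cells 0 to 26 (median 5), 18 and 204 in all, or 276 and 1081 CPM (1.97, 1.27 to 2.75). No control cell and 12 of 27 B16-F10 cells had more than 5 Junb UMIs, although the lower parts of both ranges overlap. Fos and Junb occurred together in 2 of 9 and 18 of 27 cells.

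Cd69, the receptor that holds activated lymphocytes in tissue (ENSMUSG00000030156, chromosome 6, 129267325 to 129275436, minus strand), was found in 4 of 9 and 18 of 27 B cells. It had 16 and 93 UMIs, or 245 and 493 CPM (1.01, 0.23 to 1.87), with at most 6 UMIs in a control cell and 16 in a B16-F10 cell. Unlike Fos and Junb, it was nearly absent from endothelial barcodes, at 0.0854 and 0.353 CPM, and from near-empty barcodes, at 0.882 and 5.24 CPM. After thinning, 0 and 8 cells had a Cd69 UMI.

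Other genes of the list were higher on fewer UMIs. Jund, another AP-1 subunit, was at 39 and 226 UMIs (1.00, 0.51 to 1.53), though at 0.22 after thinning. The stress phosphatase gene Dusp1 was at 1 and 24 UMIs (3.05, 0.43 to 8.41), and Ier2 at 4 and 33 (1.51, 0.02 to 3.47). Fosb and Irf4, a transcription factor of activated B cells, had 2 and 19 UMIs each (1.71), with an interval (-0.34 to 4.86) that includes 0. The gene in the opposite direction was Zfp36, which encodes an mRNA-destabilising protein, at 23 and 22 UMIs (-1.60, -2.51 to -0.69). Rel (0.24), Btg1 (0.22), Nfkbia (0.27) and Cd83 (-0.14) differed by less than counting error.

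**Figure D3:**
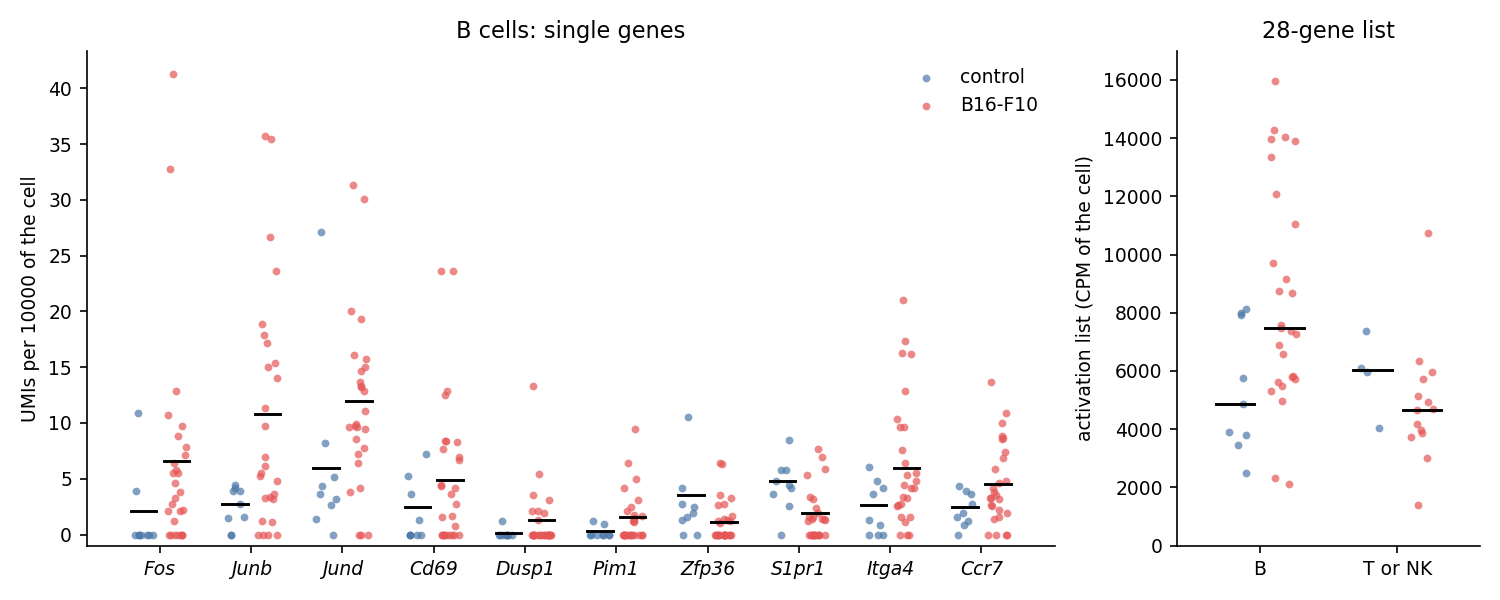
Left, UMIs per 10000 of 10 genes in each B cell, with control and B16-F10 cells side by side and black bars at the pooled level of each library. Right, level of the 28 activation and immediate early genes in CPM in each B cell and each T or NK cell, with black bars at the medians. In B cells the B16-F10 points reach 15960 CPM against 8125 in control, whereas in T or NK cells the median is lower in the B16-F10 library (4668 against 6031).

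The homing and adhesion list was at a similar level in B cells of both libraries (5169 and 5292 CPM, 0.03, -0.15 to 0.22), but single members went in opposite directions. Of 9 measured genes, 1 was at least 2-fold higher and 1 lower, against 8.73% and 6.62% of all genes measured in B cells. Itga4, the alpha chain of the integrin VLA-4 that binds Vcam1 on endothelium (ENSMUSG00000027009, chromosome 2, 79255426 to 79333123, plus strand), was found in 6 of 9 and 24 of 27 cells. It had 0 to 5 UMIs per control cell (median 1) and 0 to 20 per B16-F10 cell (median 3), 17 and 113 in all, or 261 and 599 CPM (1.20, 0.46 to 2.03). S1pr1, the sphingosine-1-phosphate receptor by which lymphocytes leave tissue and which Cd69 binds (ENSMUSG00000045092, chromosome 3, 115710433 to 115715072, minus strand), was found in 8 of 9 and 15 of 27 cells.

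S1pr1 had 0 to 7 UMIs per control cell (median 3) and 0 to 10 per B16-F10 cell (median 1), 31 and 37 in all, or 475.5 and 196 CPM (-1.28, -2.01 to -0.54). The ranges of both genes overlap between the libraries. Endothelial barcodes held 793 and 1084 CPM of S1pr1, and the part of free RNA in the S1pr1 counts of B cells was not tested. The lymph node homing receptor Ccr7 was higher (16 and 86 UMIs, 0.89, 0.11 to 1.76), and Gpr183, an oxysterol receptor that positions B cells, was lower (48 and 80 UMIs, -0.80, -1.33 to -0.25). Klf2 (0.20), a transcription factor that drives S1pr1, differed by less than counting error.

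The interferon list was slightly lower in B cells of the B16-F10 library, at 5491 and 4492 CPM (-0.29, -0.47 to -0.11), with 0 of 10 measured genes at least 2-fold higher and 1 lower. The ranges per cell, 1996 to 13506 CPM (median 4373) and 1978 to 12315 (median 4206), overlap almost wholly. The highest control cell held 98 of the 358 control UMIs of the list, and the ratio without that cell was not computed. The gene past 2-fold was Parp14 (14 and 11 UMIs, -1.88), of which 11 of the 14 control UMIs came from 1 cell. Ifi203 was at 48 and 84 UMIs (-0.73, -1.25 to -0.18), and Ly6e, the most abundant member, at 121 and 313 (-0.16, -0.47 to 0.15). In endothelial barcodes of the same libraries the list was higher, at 7560 and 10098 CPM.

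Antigen presentation genes were at similar levels. The 10 genes of the MHC class II list together stood at 19356 and 19279 CPM (-0.01, -0.10 to 0.09), and none of the 9 measured ones was past 2-fold. Cd74, the invariant chain, had 19 to 110 UMIs per control cell (median 69) and 4 to 164 per B16-F10 cell (median 66), or 9509 and 9351 CPM (-0.02, -0.16 to 0.11). H2-Aa (0.18), H2-Ab1 (0.11) and H2-Eb1 (-0.26) encode chains of the presenting molecules themselves, and only the interval of H2-Eb1 (-0.50 to -0.01) leaves out 0. The list lay at -0.61 without the condition on Cdh5.

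Of the cytokine signalling list, 3 of 9 measured genes were at least 2-fold higher in B cells and 1 lower, and the sum was 1840 and 2140 CPM (0.22, -0.08 to 0.52). Pim1, a survival kinase induced by cytokines, was at 2 and 30 UMIs (2.37, 0.39 to 5.48), in 2 of 9 and 13 of 27 cells. Il10ra (4 and 24 UMIs, 1.05, -0.49 to 3.04) and Il21r (3 and 27, 1.64, -0.06 to 4.0) encode cytokine receptor chains, and the interleukin-4 receptor gene Il4ra was at 9 and 13 UMIs (-1.0, -2.34 to 0.40). The intervals of these receptor genes include 0.

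Over all genes seen in at least 5 B cells, the 10 highest ratios were those of Hopx, Dusp1, Ctps2, Sik1, Tcf3, Phb2, Pi4ka, Trps1, Prkdc and Ube2j1, and the 10 lowest those of Fgf13, Ms4a6c, Pkib, Bcl6, St6galnac3, Wapl, Serpini1, Parp14, Ctdspl2 and Ddx41. Each of the highest rested on 1 or 2 control UMIs. Sik1, a kinase gene that responds to cAMP, had 2 UMIs in control and 46 in the B16-F10 library, in 2 of 9 and 21 of 27 cells (2.99, 1.06 to 6.08), and no cell held more than 5. Bcl6, a transcriptional repressor of B cells, had 25 and 11 UMIs, in 6 of 9 and 5 of 27 cells (-2.72, -3.89 to -1.64). Single cells held much of several of these genes, namely 14 of the 27 Hopx and 25 of the 42 Trps1 UMIs of the B16-F10 library, and 32 of the 33 St6galnac3, 11 of the 14 Parp14 and 10 of the 18 Fgf13 UMIs of control.

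The 18 T or NK cells were a mixture. Ncr1, the NK receptor NKp46 (ENSMUSG00000062524, chromosome 7, 4337724 to 4345164, plus strand), was found in 8 cells, 2 of 4 in control and 6 of 14 in the B16-F10 library, at 4 to 16 UMIs each. All 8 also had Klrb1c (NK1.1), the granzyme gene Gzma and the chemokine gene Ccl5, and none had a UMI of Trac, the alpha chain constant gene of the T cell receptor. Endothelial barcodes held 0 and 0.0244 CPM of Ncr1. By the selection markers, 7 of the 8 had Nkg7 without Cd3e or Cd3g, and 1 control cell had 34 UMIs of Nkg7 and 1 of Cd3g.

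Of the 10 cells without Ncr1, 9 had a Trac UMI. Cd8b1, the CD8 beta chain (ENSMUSG00000053044, chromosome 6, 71322788 to 71337494, plus strand), was found in 0 of 4 control and 4 of 14 B16-F10 cells, at 11, 12, 14 and 12 UMIs. Those 4 cells also held 6 to 9 UMIs of Trac, 4 to 9 of Nkg7, 8 to 16 of the interleukin-7 receptor gene Il7r and 4 to 25 of Lef1, a transcription factor of naive T cells. In 4 control cells a subset at that frequency can easily be missed, since 0 of 4 cells allows a share of up to 60.2% (Clopper-Pearson).

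Foxp3, the regulatory T cell factor, was found in 1 cell of each library with 4 UMIs, beside 19 and 34 UMIs of the inhibitory receptor Ctla4 and 1 and 4 of Cd4. Of the remaining 4 cells, control cell 3 had 14 UMIs of Trbc2 and none of Cd4 or Cd8b1, and B16-F10 cell 11 had 2 UMIs of Cd4. B16-F10 cell 6 had no Trac, 5 UMIs of Trdc, the delta chain constant gene, and 47 of Il7r. Trbc1 and Trbc2 are identical at 498 of 521 coding positions (95.6%), so their counts may be divided wrongly between them, and Trbc1 was also seen in cells with Ncr1.

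B16-F10 cell 1 stood apart from all others. It had 24408 UMIs and 5034 genes, 27 UMIs of Cd3e and Cd3g together, 17 of Trdc, 1 of Trac and none of Ncr1, with 432 of Gzma, 235 of Ccl5 and 85 of Nkg7. The 14 cell cycle genes gave 338 UMIs in it and at most 13 in any other T or NK cell. Because 732 of the 832 cytotoxic UMIs in B16-F10 cells without Ncr1 came from it, sums over T or NK cells are given with and without it where it decides them. Scrublet did not call it a doublet, but whether it can detect a pair of lymphocytes, which are rare in these libraries, was not tested.

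**Figure D4:**
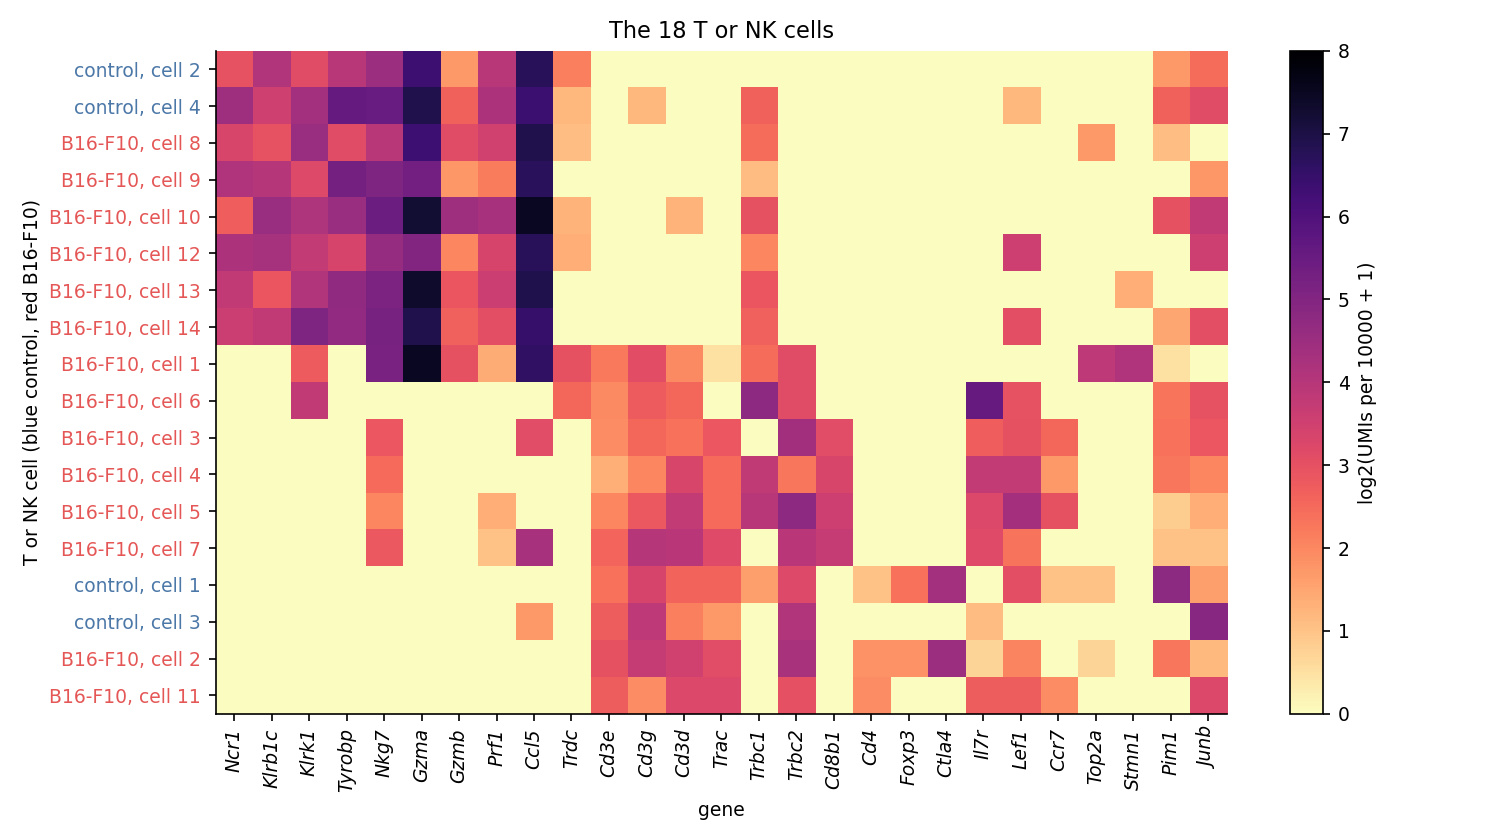
Level of 27 genes in each of the 18 T or NK cells, as log2 of UMIs per 10000 plus 1, with cells in rows and genes in columns. Rows are grouped into the 8 cells with Ncr1, the 2 with at least 5 Trdc UMIs, the 4 with Cd8b1 and the rest. Gzma and the related granzyme gene Gzmb fill the rows with Ncr1 and that of B16-F10 cell 1 and are at 0 in all remaining rows.

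The 15 genes with the highest level over all other barcodes were Klrc2, Klrg1, Sh2d2a, Klre1, Gzma, Nkg7, Klrk1, Ncr1, Eomes, Sh2d1a, Gzmb, Apol7e, Ccl5, Fasl and Cst7, at 9.91 to 11.37 on the log2 scale. Most are NK receptors or killing genes, and only Nkg7 belongs to the selection markers.

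In T or NK cells, 1726 genes could be measured between the libraries, of which 229 were at least 2-fold higher in the B16-F10 library (13.3%) and 188 lower (10.9%), with a median of -0.02. The list counts below are set beside these shares. The control sum rests on 4 cells and 35046 UMIs, so 1 cell can decide a gene. The cytotoxic list stood at 12156 and 13380 CPM (0.14, -0.01 to 0.29), with 1 of 10 measured genes at least 2-fold higher and 1 lower. Gzma was at 163 and 830 UMIs (0.24, with an interval that just includes 0) and Ccl5 at 160 and 778 (0.17, -0.07 to 0.43).

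The list turned with B16-F10 cell 1. Without that cell (a choice made with the data in view) it was lower in the B16-F10 library (-0.26, -0.42 to -0.09). In the cells with Ncr1 alone it was 24387 and 27720 CPM (0.18, 0.02 to 0.35), and in those without Ncr1 1190 and 7691 CPM (2.69, 2.08 to 3.37). Without B16-F10 cell 1, the cells without Ncr1 had 22 and 100 cytotoxic UMIs, or 1190 and 1194 CPM (0.00, -0.67 to 0.74), so the 2.69 rests on that cell. Perforin (Prf1) was at 26 and 49 UMIs (-1.19, -1.91 to -0.45), and the chemokine gene Ccl4 at 3 and 51 (1.98, 0.35 to 4.30), of which 48 were from 1 cell.

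The activation and immediate early list had the opposite direction to that in B cells. It stood at 5935 and 4368 CPM (-0.44, -0.67 to -0.21), with 2 of 12 measured genes at least 2-fold higher and 3 lower. Control cells ranged from 4037 to 7383 CPM (median 6031) and B16-F10 cells from 1393 to 10745 (median 4668), with 5 of 14 below the lowest and 1 above the highest control cell. In the cells with Ncr1 the ratio was 0.21 (-0.16 to 0.58) and in those without it -0.83 (-1.12 to -0.53), or -0.58 (-0.88 to -0.28) when B16-F10 cell 1 was also left out. Over all other T or NK cells it was -0.26 (-0.49 to -0.03). Whether these cells differ was not tested, and the groups hold different kinds of T cells.

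Single cells weighed on this list too. Junb was at 37 and 53 UMIs (-1.59, -2.22 to -0.94), but 25 of the 37 control UMIs were from control cell 3. With up to 1 Cdh5 UMI allowed, Junb lay at -0.43 and the list at -0.12. Dusp1 had 2 to 4 UMIs in each control cell and 0 to 2 in each B16-F10 cell, 11 and 9 in all (-2.40, -3.85 to -0.99), and was thus lower where B cells had more of it. The inhibitor of NF-kB signalling Tnfaip3 was at 19 and 39 UMIs (-1.07, -1.90 to -0.20), with 14 of the control UMIs in 1 cell. Cd69 was higher, as in B cells, at 3 and 41 UMIs and in 1 of 4 and 9 of 14 cells (1.66, 0.02 to 4.0).

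The interferon list stood at 3025 and 3818 CPM in T or NK cells (0.34, 0.04 to 0.65). Of all genes measured in these cells, 13.3% were at least 2-fold higher and 10.9% lower. For the list, 4 of 10 measured genes were at least 2-fold higher and none lower. Among them were Irf1 (2 and 29 UMIs, 1.75), Trim30a (1 and 25, 2.54) and Ifi27l2a (7 and 82, 1.44). The intervals of Irf1 and Trim30a include 0, and 59 of the 82 Ifi27l2a UMIs were from 1 cell. Per cell the median was lower in the B16-F10 library, at 3740 and 2443 CPM, which is the reverse of the sums. In the cells with Ncr1 the ratio was -0.11 (-0.68 to 0.49), in those without it 0.27 (-0.09 to 0.66), and in the latter without B16-F10 cell 1 0.50 (0.13 to 0.89). B16-F10 cell 2, also without Ncr1, held 171 of the 577 list UMIs of that library, and the ratio without this cell was not computed.

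Of 15 measured homing and adhesion genes, 3 were at least 2-fold higher and 3 lower, against 13.3% and 10.9% of all genes. In sum, the list stood at 5479 and 4573 CPM (-0.26, -0.49 to -0.02). The interval included 0 without B16-F10 cell 1 (-0.21, -0.45 to 0.03), in the cells with Ncr1 (-0.05, -0.38 to 0.28) and in those without it (-0.21, -0.55 to 0.15). Itga4 (33 and 67 UMIs, -1.09, -1.71 to -0.44), its partner chain Itgb1 (31 and 42, -1.67, -2.37 to -0.95) and Pecam1 (10 and 16, -1.43, -2.66 to -0.13) were lower. Ccr7 (1 and 21 UMIs, 2.28, -0.35 to 7.65), the chemokine receptor Cxcr4 (2 and 24, 1.48, -0.53 to 4.60) and Gpr183 (2 and 19, 1.14, -0.91 to 4.29) were higher, with intervals that include 0. Of the 21 Ccr7 UMIs, 19 lay in the cells with Cd8b1.

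The NK and T cell lists differed beside a different makeup of the cells. The NK list was at 9131 and 5942 CPM (-0.62, -0.81 to -0.43) and the T cell list at 5992 and 7908 (0.40, 0.19 to 0.62), while cells with Ncr1 were 2 of 4 and 6 of 14. Within the cells with Ncr1, the NK list was at -0.18 (-0.37 to 0.02). Il7r, a T cell gene, had the highest ratio of all genes seen in at least 5 cells, at 1 and 95 UMIs (4.46, 1.95 to 9.78), in 1 of 4 and 7 of 14 cells. It lay at 0.85 with up to 1 Cdh5 UMI allowed, which adds 4 control cells.

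The interval of the cytokine signalling list in sum included 0 (3652 and 3461 CPM, -0.08, -0.36 to 0.21), while in the cells with Ncr1 it was 2777 and 4729 CPM (0.77, 0.30 to 1.26). In those without Ncr1 it was lower, at 4437 and 2958 CPM (-0.59, -0.94 to -0.22), and at -0.36 (-0.72 to 0.01) when B16-F10 cell 1 was also left out. Jak1, a kinase of many cytokine receptors, was in all 18 cells, at 14 and 108 UMIs (0.84, 0.03 to 1.76). The shared receptor chain gene Il2rg was at 3 and 40 (1.63, -0.02 to 3.97). Pim1 was at 32 and 31 UMIs (-2.15, -2.91 to -1.40), with 26 of the 32 control UMIs in the cell that carried Foxp3.

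After Il7r, the 9 next highest ratios were those of Hnrnpm, Smdt1, Lsm12, Gramd3, Enox2, Rfx7, Trim30a, Bcl2l11 and Chd6, each on 1 or 2 control UMIs. The 10 lowest were those of Gm11290, Tmem243, Dusp1, Dusp10, Klf12, Prr13, Chn2, Prdm2, Suco and Dipk1a. Gm11290 had 33 UMIs in control, 29 of them in 1 cell, and 11 in the B16-F10 library (-3.69).

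**Figure D5:**
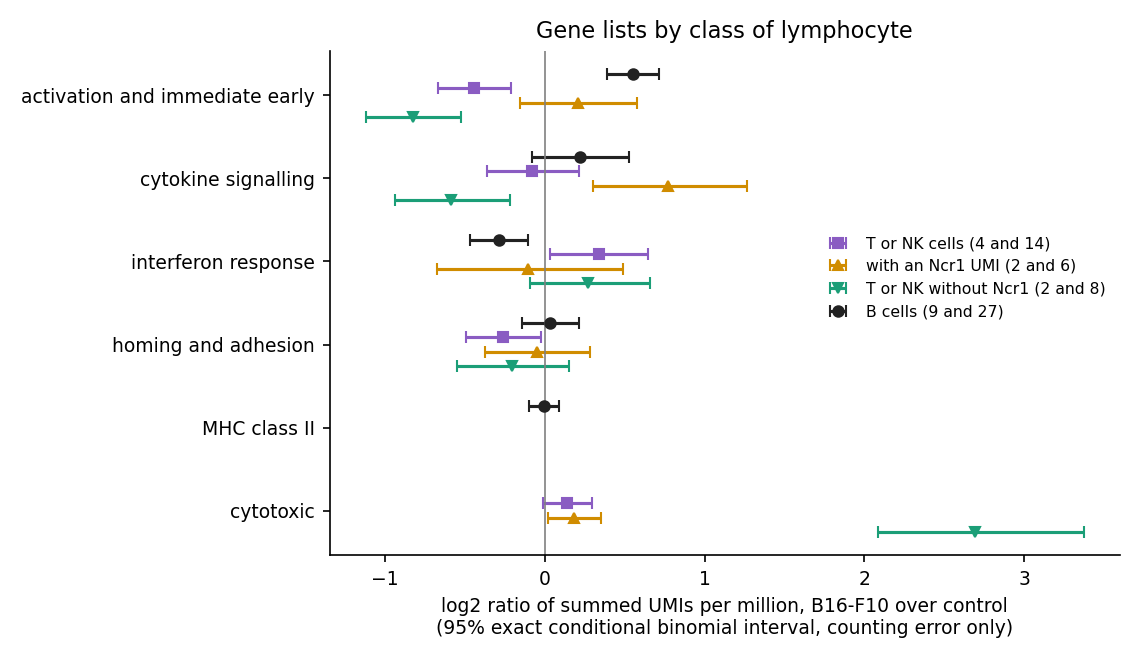
Log2 ratio, B16-F10 over control, of the summed UMIs of 6 gene lists in B cells, T or NK cells, and the T or NK cells with and without Ncr1, with exact 95% intervals of counting error. The activation and immediate early list is at 0.55 in B cells, -0.44 in T or NK cells, 0.21 in cells with Ncr1 and -0.83 in cells without it, and the cytotoxic point at 2.69 rests on B16-F10 cell 1.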

How the data were processed

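The control and B16-F10 groups were compared, each 1 library of pooled mice. The authors deposited raw UMI counts per gene and barcode for all barcodes, with no normalization. Per the labels and headers they come from Cell Ranger 7.2.0 and mm10, and the submitters' processing notes also name Seurat 4.4.0, whereas the methods name an earlier Cell Ranger and whether intronic reads were counted is not given in the sources used here. The labels name a kit whose barcode set is smaller than the 1597090 and 1779952 barcodes listed. Of 32285 gene IDs, 32235 were found in GENCODE M21 (GRCm38, the mm10 build), which gave coordinates, counted from 1, and sequences.

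Barcodes were kept at 300 genes and under 20% mitochondrial UMIs. UMIs were summed per class and library. CPM carry exact Poisson intervals, log2 ratios exact conditional binomial intervals and no pseudocount, shares Clopper-Pearson intervals and differences of shares Newcombe intervals, all at 95%. Genes needed 20 UMIs over both libraries, and a fold of at least 2 was counted. A sum of 0 was set to a floor of 3 counts. Free RNA was taken from barcodes with 1 to 100 UMIs, at the highest share the endothelial UMIs of a class allow. Scrublet in scanpy 1.11.5 marked 0.8% of barcodes per 1000 as doublets. No test was possible with 1 library per group, and depth per cell is given with the results.

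Named genes are the selection markers, members of gene lists, the 10 highest and lowest ratios per class in at least 5 cells, and the 15 genes highest over other barcodes in at least 30% of cells of a class. Genes named for a single cell, or for the makeup of the T or NK cells, were chosen after their values were seen. The members and lists were chosen with earlier results of these data known. The ratio script was tested on simulated counts. Python 3.11.15, numpy 2.4.6, scipy 1.17.1, pandas 2.3.3 and matplotlib 3.10.9 were used. Some measured list members are not reported here.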

Additional observations from a re-analysis of the deposited data

Results flagged for a closer look

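Several values differed in sign between B cells and T or NK cells, each beyond counting error. Whether the classes differ was not tested, since each group is 1 library, and the T or NK cells of control number 4. The activation and immediate early list was at 0.55 in B cells and -0.44 in T or NK cells, and the interferon list at -0.29 and 0.34. For the interferon list, 1 control B cell held 98 of 358 UMIs, and 1 B16-F10 T or NK cell held 171 of 577. Of single genes, Dusp1 was at 3.05 and -2.40, Junb at 1.97 and -1.59, Pim1 at 2.37 and -2.15, Itga4 at 1.20 and -1.09, and the chromatin gene Hmgb2 at -1.42 and 1.16. In T or NK cells, 1 cell held 25 of 37 control UMIs of Junb, 1 held 26 of 32 of Pim1, and 1 held 162 of the 202 Hmgb2 UMIs of the B16-F10 library. No such cell was found for Dusp1, where no T or NK cell held more than 4 UMIs.

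Outside the selected cells, 31 barcodes of the B16-F10 library and 4 of the control library carried at least 4 lymphocyte marker UMIs together with a Cdh5 UMI. Of the 31, Scrublet called 2 doublets, and 10 had at least 4 Cdh5 UMIs.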

How the results depend on the processing

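For 16 results, 235 alternative values were computed, of which 193 lay inside the counting interval of the main value (for numbers of genes, near the main number). Another 40 lay outside it, and 2 lay outside it and were counted as reversed. A value was counted as reversed only where the whole main interval had the other sign. The 40 thus include values of opposite sign whose main interval held both signs. The cytotoxic list in T or NK cells (main 0.14) had such values from -0.25 to -0.59. The homing list in B cells (main 0.03) had -0.33 and -0.30. The 3 shares of barcodes kept their direction in all alternatives, from 1.32 to 2.02 on the log2 scale, whereas the B cell share of lymphocytes went from -3.38 to 9.77 points and has no direction. No paired analysis was possible because only 1 library stands for each group. With 4 control T or NK cells, 1 cell can decide a ratio. For single genes, 2966 of 3129 values stayed inside and 9 were counted as reversed by the same rule. Changes of sign where the main interval held both signs are not in that number. The cause of these shifts was not tested.

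In B cells, the MHC class II list was at -0.15 with a marker sum of at least 3 UMIs, and at -0.13 with cells weighted equally or thinned. Without a condition on Cdh5, the activation list was at 0.27, interferon at -0.55, homing at -0.33, MHC class II at -0.61 and Hmgb2 at 0.50, with 762 genes higher and 547 lower. With up to 1 Cdh5 UMI (added with the data in view), they were at 0.20, -0.67, -0.30, -0.39 and 0.79, with 518 higher and 435 lower. Thinning gave 21 higher and 7 lower, H2-Eb1 at 0.12 and Hbb-bs at -0.21. With free RNA subtracted, Hba-a1 was at -1.52 and Hbb-bt at -3.14. A minimum of 10 UMIs gave 550 and 451 genes, and of 50 UMIs 28 and 20.

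In T or NK cells, the cytotoxic list was at -0.26 with 1000 to 5000 genes, which leaves out the largest cell, and Hmgb2 at -0.92. Without a condition on Cdh5, the activation list was at -0.10, interferon at 0.68, cytotoxic at -0.59 and Pecam1 at 0.88, with 621 genes higher and 348 lower. With up to 1 Cdh5 UMI, also under 25000 UMIs, the activation list was at -0.12 and cytotoxic at -0.25. Thinning gave 10 higher and 3 lower, a minimum of 10 UMIs 530 and 489, and of 50 UMIs 45 and 29. Ube2c was at -0.036 with cells weighted equally. In cells with Ncr1 (added with the data in view) the activation list was at 0.21 and interferon at -0.11, and in those without it activation was at -0.83 and cytotoxic at 2.69, which was 0.00 when the largest cell was left out too.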

Other observations

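The red cell and platelet genes were at 2039 CPM in endothelial barcodes of control and 1618 CPM in those of the B16-F10 library. The cell cycle list had 37 and 45 UMIs in B cells of control and the B16-F10 library (log2 ratio -1.25, -1.91 to -0.58). In T or NK cells it had 25 and 401 UMIs (1.90), and -0.52 (-1.21 to 0.21) without the cell of 24408 UMIs. Of the 15 pan-leukocyte genes, 14 could be measured in B cells, and none was 2-fold higher or lower.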
